A study of Mus musculus with 10 samples.

Results

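Potassium channel genes of mouse dorsal root ganglia, the ganglia that hold the cell bodies of touch, pain and position-sensing neurons, were described in 10 libraries of polyadenylated RNA. Members were taken by gene symbol: the pore-forming subunits of voltage-gated, inwardly rectifying, two-pore-domain, calcium-activated and sodium-activated channels, with their Kv beta, KChIP and BK beta subunits. The pattern matched 88 symbols, of which 6 were left out, 4 by name and 2 as antisense RNAs, so that 82 of 23923 genes remained. Of these, 80 were protein-coding, and 2 were non-coding RNAs with a channel symbol, Kcnq1ot1 and Kcnmb4os2.

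The Kif2a_cKO group held 5 libraries from ganglia of Kif2a fl/fl mice that also carried Avil cre, and the control group held 5 libraries from Kif2a fl/fl mice without cre. Both groups were sampled at 1 month of age. The series concerns Kif2a in nociception, and the comparison of the 2 groups asks which channel transcripts differ in the ganglion. Kif2a is a kinesin that depolymerizes microtubules, and Avil is active in sensory neurons, so that the glia, vessels and immune cells of the ganglion are not its main targets. Cre was carried by the Kif2a_cKO group alone, so its presence and the targeting of Kif2a cannot be told apart. The labels number the replicates without saying that each is another animal, so p-values rest on the variation among libraries, which may be technical.

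Voltage-gated (Kv) potassium channels repolarize the sensory neuron after each action potential, and their subtypes set its threshold, delay and firing rate. Two-pore-domain and inwardly rectifying channels hold the resting potential, and calcium-activated and sodium-activated channels shape the afterhyperpolarization. Kv subunits of a family can mix in 1 channel, and loss of Kv transcripts after nerve damage is a known feature of hyperexcitable sensory neurons.

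Library totals ran from 28686616 to 73031457 counts in Kif2a_cKO and from 17506135 to 34500320 counts in control. Replicates correlated at r = 0.964 to 0.989 across genes on log2 CPM (counts per 1000000 after TMM scaling). Kif2a had 69.0 ± 4.44 CPM in Kif2a_cKO and 70.2 ± 8.61 CPM in control (SD, n = 5 each), a log2 fold change of -0.02 (SE 0.0872). That value sums every exon and every cell type, and it does not check the deletion. All 12 pan-sensory neuron markers were detected in every library, and their summed level was 23758 to 28036 CPM in Kif2a_cKO and 16976 to 26561 CPM in control, lowest in control library 3. A list of 18 spinal cord markers, 5 of them at 0 in at least 1 library and none at 0 in all, summed to 75.4 to 359 CPM in Kif2a_cKO and 103 to 2441 CPM in control, highest in control libraries 3, 5 and 1.

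No potassium channel gene passed the test between Kif2a_cKO and control. Of the 82 members, 76 had enough counts for edgeR's quasi-likelihood test, and 0 had a Benjamini-Hochberg adjusted p under 0.05, where 3 of 17439 genes tested did (0.0172%). The lowest adjusted p of a member was 0.703. DESeq2 and limma-voom called 0 members as well, with lowest adjusted p-values of 0.357 and 0.496 (background 0.163% and 0.0229%). DESeq2 was run without edgeR's filter on low counts, so it gave a p for all 82 members and for 23896 genes. At an unadjusted p under 0.05, DESeq2 had 5 members higher (background 2.59%) and 7 lower (background 4.59%; 7.18% of all genes in either direction). Kcna3, not tested in edgeR, was among the 7. For limma-voom, 5 were higher (background 3.06%) and 1 was lower (background 3.5%; 6.57% in either direction). At an unadjusted edgeR p under 0.05, 5 members were higher in Kif2a_cKO (background 2.97%) and 3 were lower (background 4.01%), together 10.5% of the tested members against 6.98% of all genes tested. Since 1217 genes were past that unadjusted level, these 8 members are described and not called.

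The differences were centred on 0 and, for the abundant members, small. The median log2 fold change of Kif2a_cKO over control was 0.014 over the 76 members and 0.0073 over all genes tested, and 41 members lay above 0 and 35 below (background 52.1% above). With library totals alone in place of TMM, 33 lay above 0 and 43 below. Single members ranged from -1.84 to 1.28. The 95% interval lay wholly within a 1.5-fold change in either direction for 46 of 76 members (60.5%, background 70.1%). Among the 45 members with a mean of at least 10 CPM it did so for 36 (80.0%), against 94.5% of all genes at that level. Among the 31 scarcer members it did so for 10 (32.3%), against 35.8% of all genes below 10 CPM. The groups of libraries did not overlap for 2 members, Kcns3 and Kcnk16, both higher in Kif2a_cKO (background 0.734%), and none was wholly lower (background 0.436%; 1.17% in either direction). Kcnk16 had enough counts for the test only through its Kif2a_cKO libraries, so its separation is not read as a result. In bulk tissue, fewer cells of a type and less RNA per cell cannot be told apart for any of these values.

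**Figure D1:**
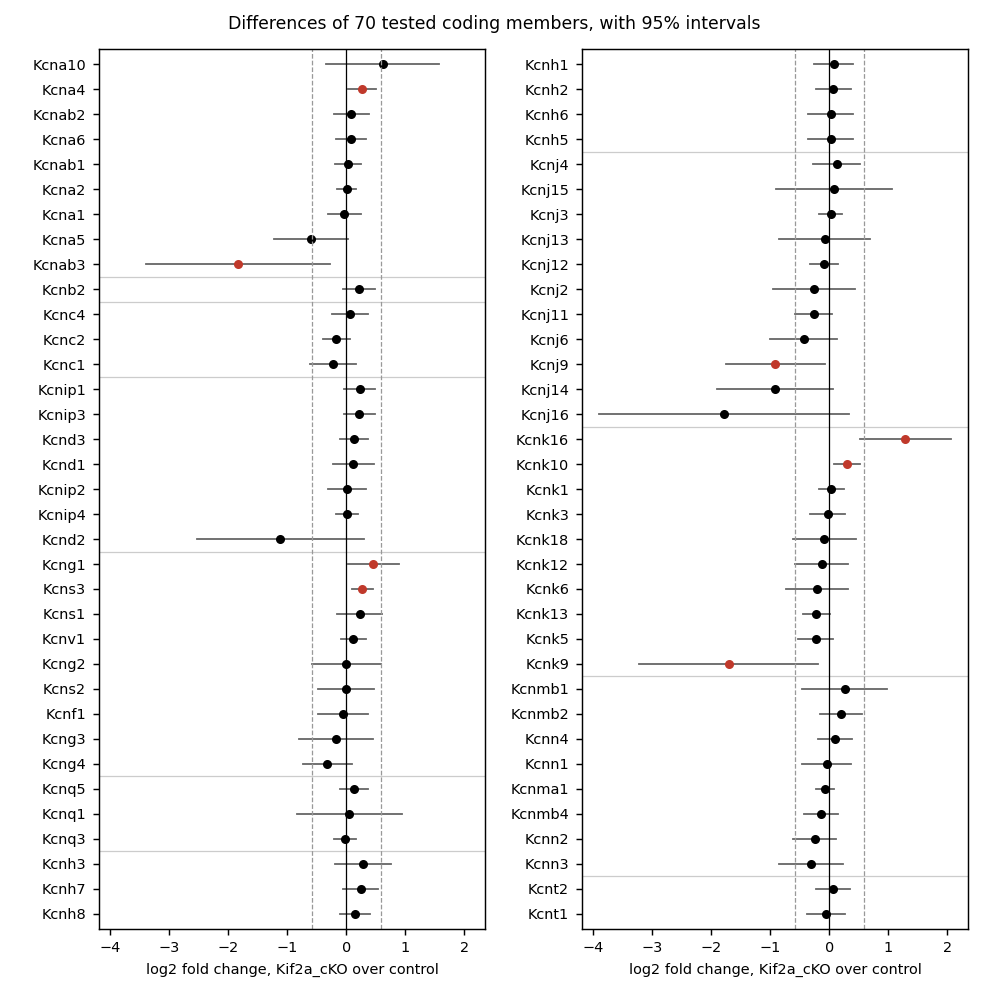
Log2 fold change of Kif2a_cKO over control with its 95% interval for 70 tested coding members, ordered by family between grey lines; red points have an unadjusted p under 0.05 and dashed lines mark a 1.5-fold change. Intervals of 42 of the 70 lie between the dashed lines, and the widest belong to members below 10 CPM, such as Kcnj16, Kcnab3, Kcnk9 and Kcnd2.

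Per kilobase of exon, 2 auxiliary subunits led the list. Kcnab2, the Kv beta 2 subunit that binds Kv1 channels and helps them reach the axon, had 188 ± 32.2 CPM per kb in Kif2a_cKO and 177 ± 26.5 in control (SD, n = 5 each). Its lowest library, at 138 CPM per kb, was above the highest library of any other member, 73.1 CPM per kb for Kcnip3. Next came Kcnip3 (mean of all libraries 61.6 CPM per kb), Kcnd1 (48.3), Kcnip2 (43.2), Kcnk1 (40.3) and Kcnip4 (38.9), whose library ranges overlapped from each to the next. Kcna2, at 27.2 CPM per kb with a highest library of 29.6, was below every library of Kcnip4, whose lowest was 35.4. Kcnc4, Kcnmb1 and Kcnh2 followed Kcna2, and each overlapped with the next. In all, 22 members averaged at least 10 CPM per kb, 33 averaged 1 to 10, and 27 averaged less than 1.

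**Figure D2:**
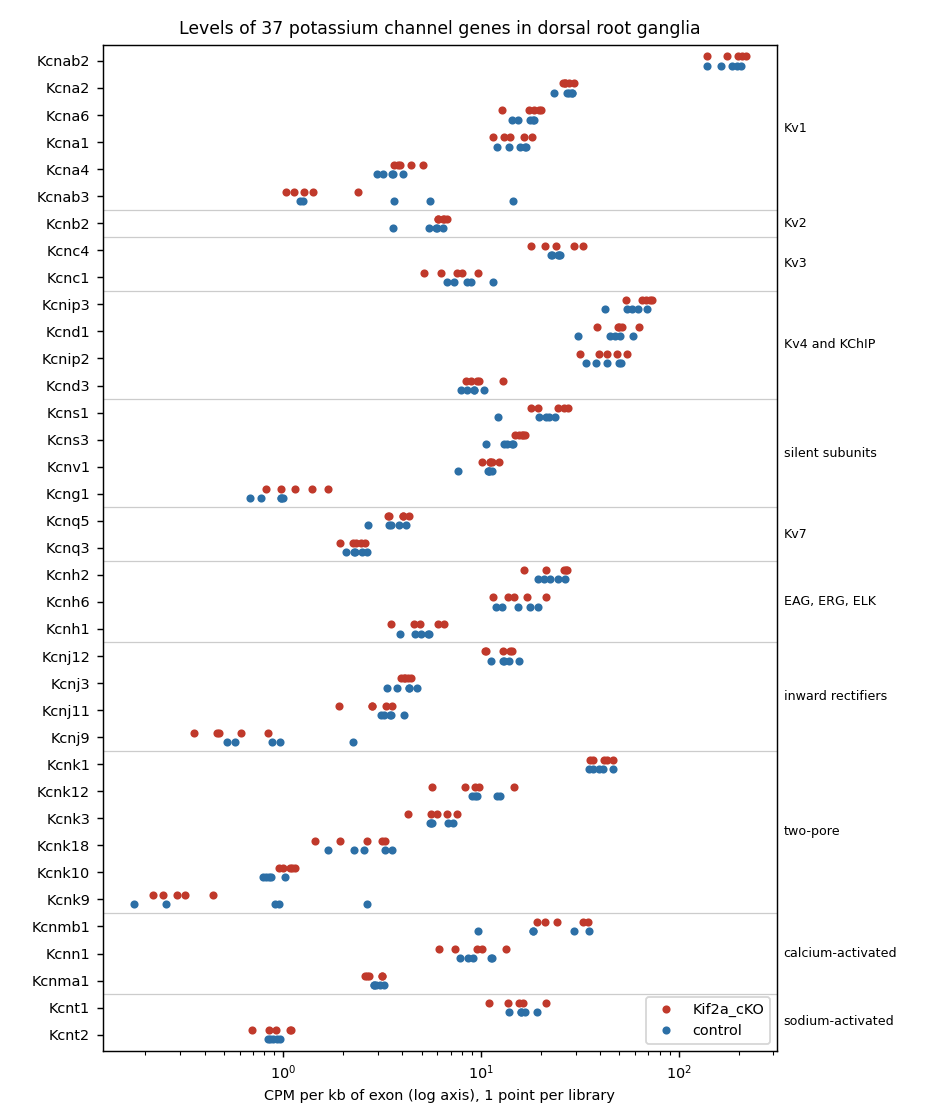
CPM per kb of exon on a log axis for 37 members in each of the 10 libraries, with the 5 Kif2a_cKO libraries in red above the 5 control libraries in blue for each gene. Levels span from under 1 to over 100 CPM per kb, while the red and blue points of a gene overlap in every row except Kcns3; control points to the right for Kcnab3, Kcnj9 and Kcnk9 belong to libraries 1, 3 and 5.

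The Kv1 family, whose Kcna1 and Kcna2 subunits flank the nodes of myelinated axons and restrain repeated firing, was led by Kcna2 among its pore-forming subunits. Kcna2 had 352, 316, 314, 331 and 309.8 CPM in Kif2a_cKO libraries 1 to 5, against 343, 343, 279, 330.4 and 323 CPM in control libraries 1 to 5. All libraries but control 3 lay between 309.8 and 352 CPM, and the groups overlapped. Kcna2 had a log2 fold change of 0.0045 (SE 0.0765, adjusted p = 0.998 in edgeR), with a 95% interval from -10.6% to 12.5%. Kcna6, another delayed rectifier subunit, had 105 ± 17.3 CPM in Kif2a_cKO and 99.8 ± 10.97 CPM in control, and Kcna1 had 69.7 ± 12.7 CPM in Kif2a_cKO and 71.7 ± 9.85 CPM in control (SD, n = 5 each). Their intervals ran from -11.9% to 25.6% and from -19.8% to 18.1%.

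The share of each Kv1 alpha subunit overlapped between the groups. Kcna2 gave 42.4 ± 2.16% of their summed CPM per kb in Kif2a_cKO and 42.9 ± 0.624% in control, and Kcna6 gave 27.4 ± 3.69% in Kif2a_cKO and 26.5 ± 1.46% in control. Kcna1 gave 22.6 ± 3.02% in Kif2a_cKO and 23.6 ± 1.58% in control. Kcna4, the rapidly inactivating Kv1.4 subunit of small-diameter neurons, gave 6.5 ± 1.10% in Kif2a_cKO and 5.49 ± 0.610% in control. Kcna3, Kcna5, Kcna7 and Kcna10 each gave under 1% in both groups. The beta subunit Kcnab2 made up 92.5% of the Kv1 beta transcripts in Kif2a_cKO and 90.3% in control, with log2 fold change 0.08 (SE 0.137, adjusted p = 0.944 in edgeR).

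Kcna2 lies on chromosome 3 between Kcna3 and Kcna10, 63.1 kb and 68.1 kb away (GRCm38, GENCODE), and the levels of these neighbours differed widely. Averaged over the 10 libraries, Kcna2 had 27.2 CPM per kb, Kcna3 had 0.155 and Kcna10 had 0.143. The 250 bases before the RefSeq start of each gene are shown because they set side by side the promoters of neighbouring genes of 1 family at such different levels. They are taken from RefSeq (GRCm38, plus strand), at chr3:107035912-107036161 for Kcna3, chr3:107101317-107101566 for Kcna2 and chr3:107182893-107183142 for Kcna10. Capitals mark the dinucleotide CG, which reads the same on both strands.
Kcna3: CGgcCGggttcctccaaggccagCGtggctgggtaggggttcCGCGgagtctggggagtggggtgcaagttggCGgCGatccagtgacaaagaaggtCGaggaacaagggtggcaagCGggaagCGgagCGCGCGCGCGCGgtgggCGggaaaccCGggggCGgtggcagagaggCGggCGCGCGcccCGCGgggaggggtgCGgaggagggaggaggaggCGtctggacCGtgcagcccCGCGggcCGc
Kcna2: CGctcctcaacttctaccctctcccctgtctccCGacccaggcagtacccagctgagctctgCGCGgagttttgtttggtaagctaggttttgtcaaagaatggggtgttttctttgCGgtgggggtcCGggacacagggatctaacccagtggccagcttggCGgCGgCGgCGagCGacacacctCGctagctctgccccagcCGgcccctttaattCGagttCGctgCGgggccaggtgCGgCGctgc
Kcna10: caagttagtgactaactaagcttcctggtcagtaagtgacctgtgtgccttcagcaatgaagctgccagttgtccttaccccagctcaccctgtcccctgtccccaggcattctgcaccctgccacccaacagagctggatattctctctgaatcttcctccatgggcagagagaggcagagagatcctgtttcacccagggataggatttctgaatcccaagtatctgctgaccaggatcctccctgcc

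The Kcna3 window holds 31 CG, the Kcna2 window 18 and the Kcna10 window 0. Scarce Kcna3 thus had more CG than abundant Kcna2, while scarce Kcna10 had fewer, and no relation of CG to level is read from these genes. RefSeq windows were found for 60 of the 82 members, and 50.0% of them hold at least 10 CG, as do 38.2% of all 27025 gene promoters in the table and 68.6% of those of tested genes. Kcnk1, at 40.3 CPM per kb, had 0 CG, and Kcng3, at 0.365 CPM per kb, had 41. Both were picked as examples, and the relation of CG number to level over the 60 members was not computed. These counts describe the windows alone, and the GENCODE starts used for the distances differ. GENCODE places the first base of Kcna2 at 107101146, before its window, and that of Kcna10 at 107183056, inside its window.

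Kv2 channels carry much of the slow delayed rectifier current of sensory neurons. Kcnb2 had 97.9, 102, 91.8, 97.7 and 91.5 CPM in Kif2a_cKO libraries 1 to 5, against 82.95, 90.6, 54.4, 96.7 and 89.8 CPM in control libraries 1 to 5. Control library 3 was lowest, at 54.4 CPM, and the groups overlapped. Kcnb2 had a log2 fold change of 0.21 (SE 0.126, adjusted p = 0.732 in edgeR), with an interval from -3.9% to 40.2%. Without control library 3 it was 0.08, and against controls 2 and 4 alone it was 0.04.

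Silent subunits form no channel alone and modify Kv2 channels when they join them. Kcns3, which encodes Kv9.3 (chr12:11090202-11151056, minus strand), had 51.4, 49.4, 46.6, 52.8 and 50.7 CPM in Kif2a_cKO libraries 1 to 5, against 42.6, 41.4, 33.4, 45.2 and 45.9 CPM in control libraries 1 to 5. Every Kif2a_cKO library lay above every control library, and the narrowest gap was 46.6 CPM in Kif2a_cKO library 3 against 45.9 CPM in control library 5. The log2 fold change was 0.27 (SE 0.084, unadjusted p = 0.00714, adjusted p = 0.703 in edgeR), with an interval from 6.2% to 36.6%. Control library 3, the lowest in neuron markers, was the lowest library. Without it the log2 fold change was 0.18, and against controls 2 and 4 alone it was 0.21.

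Kcns1, which encodes Kv9.1, had 62.6 ± 11.5 CPM in Kif2a_cKO and 53.6 ± 12.2 CPM in control (SD, n = 5 each). Its log2 fold change was 0.23 (SE 0.174, adjusted p = 0.818 in edgeR). Without control library 3 it was 0.08, a fall that follows from leaving out the lowest control. Kcnv1, a Kv8 subunit, had 51.3 ± 3.48 CPM in Kif2a_cKO and 47.4 ± 6.91 CPM in control, with control library 3 at 35.2 CPM and the other controls at 49.7 to 52.2 CPM. Kcng1, a Kv6 subunit, had 4.405, 7.59, 5.18, 6.27 and 3.67 CPM in Kif2a_cKO libraries 1 to 5, against 4.37, 4.41, 3.07, 4.50 and 3.48 CPM in control libraries 1 to 5. The groups overlapped, with Kif2a_cKO library 5 below 3 of the 5 controls. Its log2 fold change was 0.46 (SE 0.197, unadjusted p = 0.0376, adjusted p = 0.703 in edgeR). Over the 9 silent subunits, 4 log2 fold changes lay above 0 and 5 below, from -0.32 to 0.46.

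Kv3 channels open and close fast, which allows high firing rates, and Kcnc4 encodes the inactivating Kv3.4. Kcnc4 had 88.0, 119.9, 77.3, 108 and 65.3 CPM in Kif2a_cKO libraries 1 to 5, against 91.7, 83.8, 90.0, 90.9 and 82.4 CPM in control libraries 1 to 5. The groups overlapped. The log2 fold change of Kcnc4 was 0.06 (SE 0.139, adjusted p = 0.964 in edgeR), with an interval from -15.2% to 28.7%. Kcnc1 had 69.2 ± 16.1 CPM in Kif2a_cKO and 81.1 ± 17.7 CPM in control (SD, n = 5 each). Its log2 fold change was -0.23 (SE 0.176, adjusted p = 0.818 in edgeR). Without control library 3 it was -0.11, a rise that follows from leaving out the highest control.

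Kv4 channels carry the fast transient current that delays firing, and KChIPs, calcium-binding proteins, raise their number at the membrane. Kcnd1 had 262, 331, 259, 273 and 204 CPM in Kif2a_cKO libraries 1 to 5, against 266, 308, 164, 251 and 238 CPM in control libraries 1 to 5. The groups overlapped, with Kif2a_cKO library 2 highest and control library 3 lowest, and the log2 fold change was 0.12 (SE 0.158, adjusted p = 0.931 in edgeR). It turned to -0.01 without that control. Kcnd1 gave 83% of Kv4 alpha transcripts in Kif2a_cKO and 81.9% in control, and Kcnd3 gave 16.3% in Kif2a_cKO and 16.2% in control. Kcnd3 itself had 94.4 ± 16.7 CPM in Kif2a_cKO and 86.3 ± 8.62 CPM in control (SD, n = 5 each), with a log2 fold change of 0.13 (SE 0.112, adjusted p = 0.842 in edgeR). Without control library 3, the lowest control for Kcnd3 as well, it was 0.07.

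Among the KChIPs, Kcnip3, which also acts as a calcium-dependent repressor of transcription, had 252, 259, 231, 241 and 192 CPM in Kif2a_cKO libraries 1 to 5, against 219, 243, 149, 204 and 193 CPM in control libraries 1 to 5. Kif2a_cKO libraries 1 to 4 lay above 4 of the 5 controls but not all above control library 2. Kcnip3 had a log2 fold change of 0.22 (SE 0.122, adjusted p = 0.727 in edgeR). Leaving out control library 3 gave 0.11, and controls 2 and 4 alone gave 0.07. Kcnip2 had 151 ± 30.03 CPM in Kif2a_cKO and 149.6 ± 25.6 CPM in control (SD, n = 5 each), and its log2 fold change was 0.01 (SE 0.148, adjusted p = 0.997 in edgeR). Of the 7 Kv4 and KChIP members, 6 lay above 0, against 5 with median-of-ratios scaling and 4 with library totals alone. Control library 3 was the lowest library for 5 of the 7.

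Kv7 channels carry the M-current, a slow current that brakes firing near threshold. Kcnq3 had 34.3, 37.8, 33.1, 36.4 and 28.5 CPM in Kif2a_cKO libraries 1 to 5, against 33.7, 39.0, 30.5, 33.3 and 36.7 CPM in control libraries 1 to 5. The groups overlapped, with a log2 fold change of -0.03 (SE 0.0889, adjusted p = 0.982 in edgeR) and an interval from -14.0% to 12.3%. Kcnq5 had 29.5 ± 3.13 CPM in Kif2a_cKO and 27.1 ± 4.28 CPM in control (SD, n = 5 each). None of the 5 Kv7 members had an unadjusted p under 0.05.

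The EAG, ERG and ELK family was led by the ERG subunits Kcnh2 and Kcnh6. Kcnh2, the cardiac repolarizing channel that is also present in neurons, had 114 ± 22.4 CPM in Kif2a_cKO and 109 ± 13.9 CPM in control (SD, n = 5 each), and its log2 fold change was 0.06 (SE 0.136, adjusted p = 0.964 in edgeR). Kcnh6 had 55.4 ± 13.1 CPM in Kif2a_cKO and 54.7 ± 11.3 CPM in control, and Kcnh1, the EAG channel, had 37.4 ± 8.69 CPM in Kif2a_cKO and 35.7 ± 4.57 CPM in control. Their log2 fold changes were 0.02 (SE 0.172, adjusted p = 0.995 in edgeR) and 0.07 (SE 0.151, adjusted p = 0.964 in edgeR). Log2 fold changes of all 7 tested members lay between 0.018 and 0.29, whereas 2 of the 7 lay below 0 with library totals alone. Leaving out Kif2a_cKO library 2, the highest for Kcnh1 and Kcnh6, put both below 0.

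**Figure D3:**
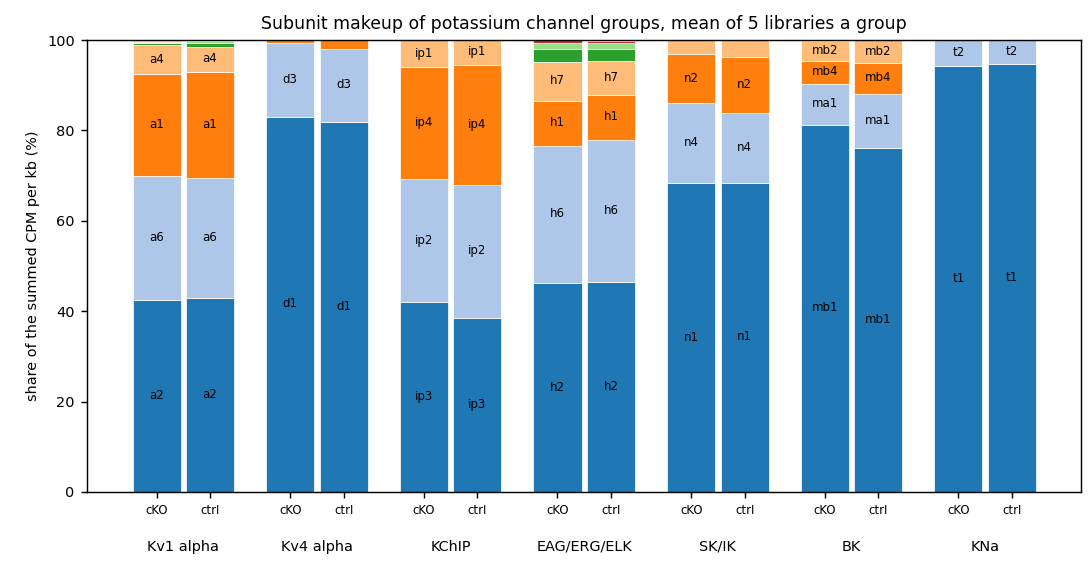
Share of each subunit in the summed CPM per kb of its channel group, as the mean of 5 Kif2a_cKO libraries (left bar of each pair) and 5 control libraries (right bar); labels drop the prefix Kcn, and segments too thin for a label belong to the scarce members. The leading subunit of each group is the same in both bars.

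Inward rectifiers were mostly scarce. Kcnj12, which encodes the constitutively active Kir2.2, had 34.2 ± 5.01 CPM in Kif2a_cKO and 36.5 ± 4.28 CPM in control (SD, n = 5 each) and a log2 fold change of -0.09 (SE 0.109, adjusted p = 0.91 in edgeR). Kcnj3, the GIRK1 subunit opened by G-protein beta-gamma, had 21.5, 22.2, 20.4, 23.1 and 21.2 CPM in Kif2a_cKO libraries 1 to 5, against 24.8, 19.5, 22.6, 17.4 and 22.5 CPM in control libraries 1 to 5. The 5 Kif2a_cKO libraries lay within the control range, and the log2 fold change was 0.02 (SE 0.0921, adjusted p = 0.987 in edgeR). Kcnj11, the pore of the ATP-sensitive channel, had 10.6 ± 2.30 CPM in Kif2a_cKO and 12.8 ± 1.34 CPM in control and a log2 fold change of -0.27 (SE 0.146, adjusted p = 0.719 in edgeR). Of the 11 tested inward rectifiers, 3 lay above 0 and 8 below (2 and 9 with library totals alone), and 3 of those below were among the members highest in control libraries 1, 3 and 5.

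Two-pore-domain channels carry background current. Kcnk1, which encodes TWIK1, had 96.9, 79.4, 82.0, 93.6 and 103 CPM in Kif2a_cKO libraries 1 to 5, against 92.5, 78.0, 88.3, 81.9 and 104 CPM in control libraries 1 to 5. Groups overlapped, the log2 fold change was 0.03 (SE 0.0957, adjusted p = 0.977 in edgeR), and the interval ran from -11.4% to 18.0%. Kcnk12, which encodes the silent THIK2, had 18.8 ± 6.52 CPM in Kif2a_cKO and 20.6 ± 3.21 CPM in control (SD, n = 5 each). Kcnk18, which encodes TRESK, a calcineurin-regulated channel of nociceptors, had 9.16, 11.3, 6.71, 10.99 and 5.02 CPM in Kif2a_cKO libraries 1 to 5, against 8.90, 12.3, 5.84, 11.3 and 7.88 CPM in control libraries 1 to 5. It ranged from 5.02 to 11.3 CPM within Kif2a_cKO and from 5.84 to 12.3 CPM within control, and its log2 fold change was -0.09 (SE 0.244, adjusted p = 0.974 in edgeR). Kcnk3, the acid-sensitive TASK1, had 23.9 ± 4.89 CPM in Kif2a_cKO and 24.5 ± 3.19 CPM in control and a log2 fold change of -0.03 (SE 0.138, adjusted p = 0.987 in edgeR).

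Kcnk10, which encodes TREK2, a heat- and stretch-sensitive background channel, had 8.31, 9.43, 9.74, 10.1 and 8.76 CPM in Kif2a_cKO libraries 1 to 5, against 7.39, 6.88, 7.17, 8.95 and 7.61 CPM in control libraries 1 to 5. Only control library 4 (8.95 CPM) overlapped the Kif2a_cKO range, whose lowest values were 8.31 and 8.76 CPM. Its log2 fold change was 0.29 (SE 0.102, unadjusted p = 0.0142, adjusted p = 0.703 in edgeR). Kcnk16, which encodes TALK1, a channel known from pancreatic islets, had 0.352, 0.555, 0.452, 0.636 and 0.337 CPM in Kif2a_cKO libraries 1 to 5, against 0.257, 0.215, 0.266, 0.114 and 0.0878 CPM in control libraries 1 to 5. No Kif2a_cKO library was as low as any control, but the gene had 126 counts in all 10 libraries together. It had enough counts for the test in the Kif2a_cKO libraries alone, so it was tested only through the group where it is high. Its separation and p-value are therefore not read as a result. The log2 fold change was 1.28 (SE 0.357, unadjusted p = 0.00336, adjusted p = 0.703 in edgeR), with an interval from 42.3% to 315.4%.

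Kcna4 completed the members higher at an unadjusted p under 0.05. It had 18.4, 24.6, 17.5, 18.7 and 21.3 CPM in Kif2a_cKO libraries 1 to 5, against 14.4, 19.5, 15.4, 17.2 and 17.3 CPM in control libraries 1 to 5. Kif2a_cKO libraries 2 and 5 lay above every control, while libraries 1, 3 and 4 lay below control library 2. The log2 fold change was 0.26 (SE 0.11, unadjusted p = 0.0316, adjusted p = 0.703 in edgeR). Of the 5, Kcns3, Kcnk10 and Kcnk16 had an unadjusted edgeR p under 0.05 without control library 3 as well, with an adjusted p of 0.984. Kcns3 and Kcnk16 had it against controls 2 and 4 alone, with an adjusted p of 0.991. These fits reuse libraries by which the 5 were picked, and no share over all genes was computed for them. They therefore add no support.

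**Figure D4:**
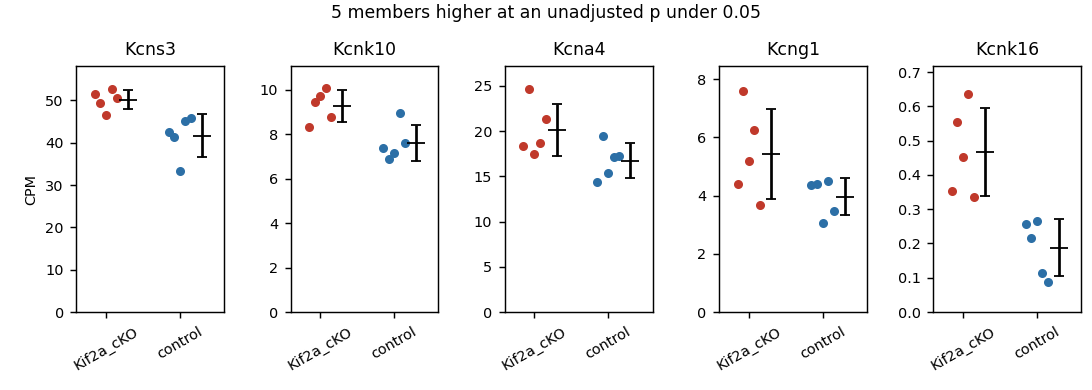
CPM in each library of the 5 members that were higher in Kif2a_cKO at an unadjusted p under 0.05, with Kif2a_cKO in red and control in blue; bars give the mean ± SD of 5 libraries. The groups are apart for Kcns3 and Kcnk16 and overlap for Kcnk10, Kcna4 and Kcng1, and none of the 5 passed the adjusted test. Kcnk16 had enough counts for the test in its Kif2a_cKO libraries alone.

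The 3 members that were lower at an unadjusted p under 0.05 were high in the same control libraries. Kcnab3, which encodes the Kv beta 3 subunit (chr11:69326258-69333042, plus strand), had 4.02, 2.95, 3.23, 6.81 and 3.64 CPM in Kif2a_cKO libraries 1 to 5, against 10.3, 3.58, 41.3, 3.48 and 15.8 CPM in control libraries 1 to 5. Control libraries 1, 3 and 5 lay above every Kif2a_cKO library, whereas controls 2 and 4 lay within the Kif2a_cKO range. Its log2 fold change was -1.84 (SE 0.687, unadjusted p = 0.0252, adjusted p = 0.703 in edgeR). Kcnk9, the acid-sensitive TASK3, had 3.55, 3.02, 3.89, 5.40 and 2.70 CPM in Kif2a_cKO libraries 1 to 5, against 11.7, 2.15, 32.5, 3.14 and 11.2 CPM in control libraries 1 to 5. Kcnj9, the GIRK3 subunit, had 2.61, 1.98, 2.02, 3.58 and 1.52 CPM in Kif2a_cKO libraries 1 to 5, against 4.11, 2.22, 9.62, 2.45 and 3.78 CPM in control libraries 1 to 5. Both showed the same 3 controls on top, with control library 3 far above the rest. The log2 fold change was -1.71 for Kcnk9 (SE 0.671, unadjusted p = 0.0313) and -0.92 for Kcnj9 (SE 0.386, unadjusted p = 0.0355), each with an edgeR adjusted p of 0.703. Without control library 3 the log2 fold changes of Kcnab3, Kcnk9 and Kcnj9 were -1.03, -0.96 and -0.44.

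Spinal cord markers were highest in those controls too. The mean log2 CPM of the 18 markers was 1.64, -0.33, 1.75, 2.47 and 1.79 in Kif2a_cKO libraries 1 to 5, against 3.77, -0.03, 5.62, 0.15 and 4.02 in control libraries 1 to 5. Control libraries 1, 3 and 5 were the 3 highest libraries for 7 of 76 members (9.21%, background 3.74%), namely Kcna5, Kcnab3, Kcnj14, Kcnj16, Kcnj9, Kcnk9 and Kcnn3. Measured against controls 2 and 4 alone, the log2 fold change was 0.24 for Kcnab3, 0.52 for Kcnk9 and 0.03 for Kcnj9. The direction was thus reversed for all 3 of the members lower at an unadjusted p under 0.05, which were high in the controls left out. Controls 2 and 4 had lower marker means (-0.03 and 0.15) than Kif2a_cKO libraries 1, 3, 4 and 5 (1.64 to 2.47). That comparison is therefore unbalanced in marker level the other way. With the marker mean as a covariate, the log2 fold changes of Kcnab3, Kcnk9 and Kcnj9 were -0.60, -0.41 and -0.36. In that fit the unadjusted edgeR p of Kcnab3 was 0.0237 and its adjusted p was 0.93. No share over all genes was computed for the fit, so this p is not read as a result. The part of spinal cord content in these differences was not tested.

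Kcnj16, which encodes Kir5.1, a subunit known from astrocytes and renal epithelium, had 2.76, 0.659, 2.96, 4.19 and 2.83 CPM in Kif2a_cKO libraries 1 to 5, against 8.99, 0.825, 28.7, 0.798 and 6.94 CPM in control libraries 1 to 5. Its log2 fold change was -1.78 (SE 0.934, adjusted p = 0.719 in edgeR) over all libraries and 1.74 (SE 0.597) against controls 2 and 4. With the spinal cord marker mean as a covariate it was 0.30. Kcnd2, which encodes Kv4.2, had 1.44, 1.32, 1.22, 4.12 and 2.60 CPM in Kif2a_cKO libraries 1 to 5, against 3.65, 1.33, 12.0, 1.25 and 5.21 CPM in control libraries 1 to 5. Control library 3 was highest for both genes. The Kcnd2 log2 fold change of -1.12 (SE 0.633, adjusted p = 0.727 in edgeR) became 0.75 against controls 2 and 4 and -0.03 with the covariate.

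**Figure D5:**
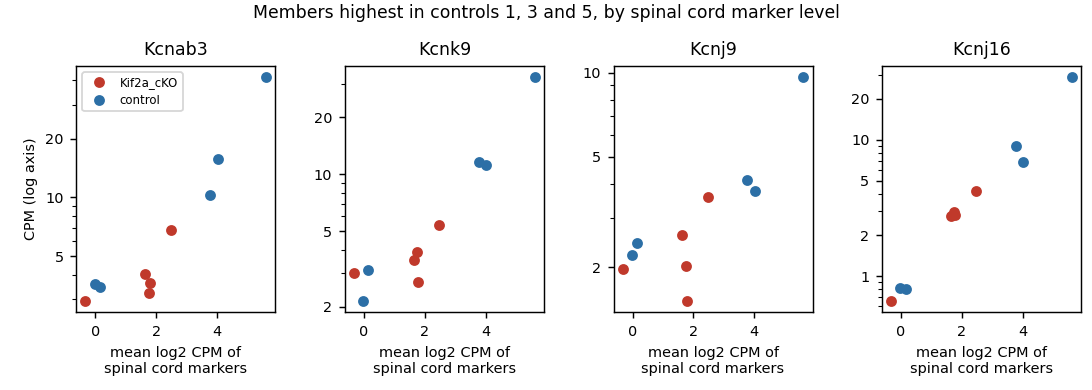
CPM of 4 members on a log axis against the mean log2 CPM of 18 spinal cord markers, 1 point per library, with Kif2a_cKO in red and control in blue. Control library 3, with a marker mean of 5.62, is the highest point in each panel, and controls 2 and 4 lie among the Kif2a_cKO libraries or below them.

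Calcium-activated channels were led per kb by Kcnmb1 and Kcnn1. Kcnma1, the pore of the large-conductance BK channel, had 45.7, 53.4, 45.1, 53.4 and 44.1 CPM in Kif2a_cKO libraries 1 to 5, against 52.4, 48.9, 49.7, 48.8 and 55.1 CPM in control libraries 1 to 5. The libraries of both groups lay between 44.1 and 55.1 CPM, with a log2 fold change of -0.08 (SE 0.0742, adjusted p = 0.865 in edgeR) and an interval from -15.1% to 6.0%. Kcnmb1, a BK beta subunit best known from smooth muscle, had 145, 138, 88.5, 102 and 80.7 CPM in Kif2a_cKO libraries 1 to 5, against 123, 147, 40.4, 76.2 and 76.8 CPM in control libraries 1 to 5. The controls alone spanned 40.4 to 147 CPM, and the log2 fold change was 0.26 (SE 0.324, adjusted p = 0.92 in edgeR), or 0.05 without control library 3, the lowest. Kcnn1, which encodes the small-conductance SK1, had 42.6 ± 12.7 CPM in Kif2a_cKO and 44.0 ± 7.39 CPM in control (SD, n = 5 each) and a log2 fold change of -0.05 (SE 0.191, adjusted p = 0.987 in edgeR). Kcnmb1 gave 81.3% of BK transcripts per kb in Kif2a_cKO and 76.2% in control, while Kcnma1 gave 9.09% in Kif2a_cKO and 12.0% in control.

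Sodium-activated channels were represented by Kcnt1 and Kcnt2, which encode Slack and Slick. Kcnt1 had 148, 203, 130.2, 155 and 105 CPM in Kif2a_cKO libraries 1 to 5, against 158, 181, 132, 152 and 150.1 CPM in control libraries 1 to 5. Groups overlapped, with Kif2a_cKO libraries 2 and 5 the highest and the lowest of all, and the log2 fold change was -0.06 (SE 0.149, adjusted p = 0.97 in edgeR). Kcnt1 gave 94.2% of the pair's transcripts per kb in Kif2a_cKO and 94.8% in control. Kcnt2 had 6.39 ± 1.16 CPM in Kif2a_cKO and 6.14 ± 0.350 CPM in control (SD, n = 5 each). The non-coding Kcnq1ot1, an imprinted antisense RNA, had 10.4 ± 1.07 CPM in Kif2a_cKO and 9.06 ± 2.04 CPM in control, and Kcnmb4os2 had 1.46 ± 0.204 CPM in Kif2a_cKO and 1.61 ± 0.406 CPM in control. Strand use in counting is not given in the sources used here, so reads of these 2 RNAs and of their sense partners Kcnq1 and Kcnmb4 cannot be told apart where they overlap. The same limit holds for coding members whose exons overlap another gene, such as Kcnj13 (49.1% of its exon bases) and Kcna6 (39.6%).

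Channels whose transcripts are known to drop in sensory neurons after nerve injury were read as a list of 11, among them Kcna1, Kcna2, Kcna4, Kcns1 and Kcnma1. None was called, and 1 had an unadjusted edgeR p under 0.05 (Kcna4, higher, 9.09%, background 6.98%). Above 0 lay 8 of 11 log2 fold changes (72.7%, background 52.1%), or 7 of 11 with either other scaling. These channels all had a mean of at least 10 CPM, and among all genes at that level 55.7% lay above 0. The list's log2 fold changes ranged from -0.08 to 0.26. Their median was 0.06, beside 0.0073 over all genes tested and 0.0145 over those with at least 10 CPM. Pan-sensory neuron markers lay above 0 in 12 of 12 cases with each of the 3 scalings, with a median of 0.18. Control library 3 was the lowest library for 8 of those 12 markers and for 5 of the 11 channels (45.5%). The background was 17% of all genes tested and 22.5% of those with a mean of at least 10 CPM. The part of neuron content in the list's values was not tested. The injury-response gene Atf3 had 15.2, 14.4, 10.8, 14.7 and 12.8 CPM in Kif2a_cKO, against 6.28, 8.85, 5.64, 5.70 and 4.83 CPM in control, with no overlap. Atf3 was called, at a log2 fold change of 1.12 (SE 0.156, adjusted p = 0.0453 in edgeR). Background channels of nociceptors, a list of Kcnk18, Kcnk3, Kcnk9 and Kcnt1, had 0 called, and all 4 lay below 0, from -0.03 for Kcnk3 to -1.71 for Kcnk9, where 52.1% of all genes tested lay above 0. Each direction turned in an alternative. Kcnk9 was at 0.52 against controls 2 and 4, Kcnk3 was at 0.01 in limma-voom, and Kcnk18, Kcnk3 and Kcnt1 each lay above 0 when Kif2a_cKO library 5 was left out, Kcnk18 also without control library 2 and Kcnk3 also without control library 4.

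Partner genes of the channels were read in the same fit. Of 26 listed, among them the KCNE subunits, Dpp6 and Dpp10 of Kv4 channels, the BK gamma subunits, the sulphonylurea receptors and the axonal anchors Cntnap2 and Cntn2, 24 were tested and 0 were called. The median log2 fold change was -0.0026, and 1 partner, the BK gamma subunit Lrrc55, had an unadjusted p under 0.05 (log2 fold change -0.36, SE 0.161, edgeR adjusted p = 0.703).

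Some libraries were the highest or the lowest for many members, and the variation that members share was not measured. Summed over the 80 coding members, the level was 4751, 5287, 4255, 4932 and 3726 CPM in Kif2a_cKO libraries 1 to 5, against 4745, 4903, 3880, 4438 and 4365 CPM in control libraries 1 to 5. The mean was 4590.1 ± 610.0 CPM in Kif2a_cKO and 4466 ± 395 CPM in control (SD, n = 5 each), a difference of 2.78% that is smaller than either SD. Kif2a_cKO library 2 was the highest library for 27 of 76 members (35.5%, and 14.7% of all genes tested). Kif2a_cKO library 5 was the lowest for 26 (34.2%, and 19.5% of all genes), and control library 3 was the lowest for 20 (26.3%, background 17%). Pan-sensory neuron markers also had their lowest sum in control library 3, at 16976 CPM, and the part of neuron content in these values was not tested.

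The 6 members with too few counts to be tested were Kcna3, Kcna7, Kcnh4, Kcnk7, Kcnk15 and Kcnmb3, with 19 to 101 counts each over the 10 libraries. Kcna3, a Kv1 subunit known from T cells, had 7, 3, 4, 18 and 4 counts in Kif2a_cKO, against 9, 15, 17, 4 and 20 counts in control. Fitted without the filter on low counts, its log2 fold change was -1.30 (SE 0.398, unadjusted p = 0.00532, edgeR adjusted p = 0.712). In the authors' deposited table, 0 of the 82 members passed the thresholds that 31 genes passed, and the lowest false discovery rate was 0.294, for Kcnab3. There, 12 members had a p under 0.05. The share of all genes under 0.05 was not computed for that table, and it was 7.18% in the DESeq2 fit made here (unadjusted).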

How the data were processed

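Per the submitters' processing notes, reads were handled with cutadapt, STAR and DESeq2 on mm10. Versions, read counter, annotation, strand use and any read filter are not known from these notes. For each gene symbol the authors deposited whole-number raw counts of 5 Kif2a_cKO and 5 control libraries, with at least 6 counts over the series. The authors also deposited a size-factor normalized signal, regularized log2 values, a log2 fold change and a p-value with a false discovery rate. Of these, only the comparison columns are quoted.

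The raw counts of all 23923 genes entered edgeR 4.0.16 under R 4.3.3 (filterByExpr, minimum count 10 and minimum total 15, leaving 17439 genes; TMM factors 0.957 to 1.05; robust quasi-likelihood F test on group; Benjamini-Hochberg over all genes tested; call at 0.05). SE is the log2 fold change divided by the square root of F. CPM are counts per 1000000 with TMM factors, and CPM per kb divide by the exon union of GENCODE release 21 for mouse (GRCm38). DESeq2 1.42.0, limma-voom with quality weights (limma 3.58.1), other scalings, filters and thresholds, left-out libraries and a spinal cord marker covariate were alternatives. The pipeline was tested on simulated data. No 2 replicates matched within sampling noise (lowest chi-square 9.85 per gene), so none was merged. Counts without molecular identifiers do not separate PCR copies, so errors come from the differences among libraries.

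The members and lists were chosen with earlier results of these data known. Named genes were the 3 most abundant members of each family per kb, members with a mean of at least 1 CPM and an unadjusted p under 0.05, and the injury and nociceptor lists. Kcnk16, Kcnj16, Kcnd2, Kcna3, Kcna5, Kcnj14, Kcnn3, Kcnk13, the 2 non-coding RNAs, the other untested members and the members named for their promoter or exon overlap were chosen outside this rule, after their values were seen. Values of some single members are left out and not reported here.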

Additional observations from a re-analysis of the deposited data

Results flagged for a closer look

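Among 74 groups of 5 libraries (37 named genes in Kif2a_cKO and in control), 3 held a library farther from its nearest neighbour than Dixon's 95% critical value allows, 0.71 of the range for 5 values. Chance alone flags about 1 in 20 groups.

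Kcnab3, the Kv beta 3 subunit, had 6.807 CPM in Kif2a_cKO library 4, while the other Kif2a_cKO libraries had 2.95 to 4.02 CPM. That library also had the highest spinal cord marker mean of its group, a log2 CPM of 2.47. Kcnj9, the GIRK3 subunit, had 9.618 CPM in control library 3, and the other controls had 2.22 to 4.11 CPM. The marker mean was 5.62 in this library, the highest of all 10. Kcnv1, the Kv8 silent subunit, had 35.197 CPM in control library 3 beside 49.7 to 52.2 CPM in the other controls. The summed level of pan-sensory neuron markers was lowest in the same library, at 16976 CPM. The part of these marker levels in the 3 values was not tested.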

How the results depend on the processing

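The result that no potassium channel gene passed an adjusted p of 0.05 held in every alternative run, at a threshold of 0.10 as well, and the lowest adjusted p of any member in any of them was 0.357 (Kcnab3 in DESeq2). Counts at an unadjusted p under 0.05 moved more. A share over all genes was computed for the main edgeR fit, DESeq2 and limma-voom alone. The counts of the other fits are therefore not read as results about the members. Members higher in Kif2a_cKO numbered 5, and 3 with the spinal cord marker mean as a covariate. Members lower numbered 3, against 7 in DESeq2, 1 in limma-voom, 5 with median-of-ratios scaling, 6 with library totals alone, 5 with no filter on low counts, 5 with 1 CPM or more required in 5 libraries, 1 against controls 2 and 4, and 1 with the covariate. Leaving out each library in turn gave 3 to 6 higher members and 0 to 8 lower ones, with 0 lower without Kif2a_cKO library 3 or without control library 3, and 8 without control library 2 or 4. Without Kif2a_cKO library 2, 3 members were higher.

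The labels do not say that a replicate number marks a shared litter, batch or day. In the sample titles, the Kif2a_cKO and control libraries of each replicate number carry consecutive sample numbers, whose meaning is not stated. Same-numbered libraries deviated together with r over 0.1 in 4 of 5 pairs, whose Kif2a_cKO library correlated best with the control of its own number, and with r = -0.147 in pair 4 (highest 0.367). Since 1 pair fell short, the numbers were not taken to pair the samples, and the data hint at pairing in the others. With the replicate number as a block, 0 members were called, 10 were higher and 2 lower at an unadjusted p under 0.05. No share over all genes was computed for this fit, so the counts are not read as a result about the members. The 10 included Kcnb2 (0.0476), Kcns1 (0.0456) and Kcnip3 (0.0269), which were not under 0.05 without the block. The 2 lower were other genes, Kcnj11 (0.0471) and Kcnk13 (0.0314), while the unadjusted p was 0.154 for Kcnab3, 0.164 for Kcnk9 and 0.0845 for Kcnj9.

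Of the 37 named genes, 13 kept their direction in all alternatives, among them Kcns3, Kcnk10, Kcna4 and Kcng1. Those named here were picked by p in the same libraries, so a kept direction adds no support. In DESeq2, the direction reversed for Kcna2 (-0.0036). With median-of-ratios scaling, the direction reversed for Kcna2 (-0.0028). With library totals alone, the direction reversed for Kcna2 (-0.0289), Kcnh6 (-0.0133), Kcnip2 (-0.0316), Kcnj3 (-0.0161) and Kcnk1 (-0.0023). With no filter on low counts, the direction reversed for Kcna2 (-0.0023). With 1 CPM or more required in 5 libraries, the direction reversed for Kcna2 (-0.0095) and Kcnip2 (-0.005). Against controls 2 and 4, the direction reversed for Kcna2 (-0.0534), Kcna6 (-0.0537), Kcnab2 (-0.0515), Kcnab3 (0.24), Kcnc1 (0.068), Kcnd1 (-0.0735), Kcnh1 (-0.0314), Kcnh2 (-0.0449), Kcnh6 (-0.25), Kcnip2 (-0.029), Kcnj9 (0.0256), Kcnk9 (0.52), Kcnmb1 (-0.0141) and Kcnq5 (-0.0624). With the spinal cord marker mean as a covariate, the direction reversed for Kcna2 (-0.0242), Kcna6 (-0.0023), Kcnd1 (-0.0084), Kcnh1 (-0.0109), Kcnh6 (-0.12) and Kcnip2 (-0.0586). In limma-voom, the direction reversed for Kcnip2 (-0.0345) and Kcnk3 (0.0141). Over the fits that each left out 1 library, the log2 fold change crossed 0 for Kcna1 (-0.13 to 0.0236), Kcna2 (-0.0605 to 0.0255), Kcnab2 (-0.0085 to 0.16), Kcnc4 (-0.0524 to 0.15), Kcnd1 (-0.0148 to 0.20), Kcnh1 (-0.0299 to 0.16), Kcnh2 (-0.0033 to 0.16), Kcnh6 (-0.11 to 0.10), Kcnip2 (-0.0829 to 0.0916), Kcnj3 (-0.0512 to 0.0795), Kcnk1 (-0.0295 to 0.0826), Kcnk18 (-0.23 to 0.0424), Kcnk3 (-0.12 to 0.0547), Kcnn1 (-0.21 to 0.0564), Kcnq3 (-0.0845 to 0.0199), Kcnt1 (-0.20 to 0.0274) and Kcnt2 (-0.0174 to 0.13). The cause was not tested. The summed level of the coding members differed by -1.12% to 7.62% over the left-out libraries.

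Depth limits the scarce members. Those under 10 CPM had a 95% interval within 1.5-fold in 10 of 31 cases, and the 6 untested members had at most 101 counts. Levels are those of the whole ganglion, and values of single cell types, isoforms or proteins were not measured.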
